A study of Mus musculus with 9 samples.

Results

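Ventricles of adult mice with stabilized beta-catenin were compared with ventricles of neonatal mice, gene by gene, by RNA sequencing. The comparison asks what an adult heart with active beta-catenin still lacks of the neonatal state and what it has in excess of it. The adult group carried an alphaMHC-driven Cre recombinase and beta-catenin without exon 3, which leaves the protein stabilized, and was 15 weeks old. The neonatal group was wild type and taken at postnatal day 6 (P6). A second adult group, also 15 weeks old and Cre positive but wild type for beta-catenin, is the adult control. All 9 libraries were labelled C57BL/6 and came from total RNA of cardiac ventricles, with 3 libraries per group, and the 6 adult libraries were labelled as a re-analysis. Age, the Cre genotype, the beta-catenin allele and the set of libraries all differed between the P6 group and the stabilized beta-catenin group, so their parts in a difference cannot be told apart. The labels do not say that the libraries came from separate animals, so the p-values measure only the spread between these libraries.

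Beta-catenin is the transcriptional effector of canonical Wnt signalling. Without a Wnt signal it is phosphorylated at residues encoded by exon 3 and degraded, and without those residues it accumulates and acts with TCF/LEF factors on target genes such as Axin2. The mouse heart matures after birth: cardiomyocytes leave the cell cycle, fetal isoforms of contractile proteins give way to adult ones, matrix synthesis slows and the muscle comes to rely on mitochondrial oxidation of fatty acids. The alphaMHC promoter directs Cre to cardiomyocytes, so other cells of these ventricles are not expected to carry the deletion, and a count per gene does not show the loss of a single exon.

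Of 24391 gene symbols in the deposited table, 13367 had at least 10 normalized counts in at least 3 of the 6 libraries and form the comparison. Among them, 12091 reached 10 in all 6 libraries, 375 passed through the P6 libraries with no stabilized library at 10, and 161 passed through the stabilized libraries with no P6 library at 10. A gene that passed through 1 group alone had to differ, so the log2 fold changes of such genes are given as descriptions with no p. Library totals were 7467551 to 7913057 reads at P6, 14965316 to 23236129 with stabilized beta-catenin and 15234366 to 21568022 in the adult control. Between 15726 and 16515 genes were detected per library. The ribosomal precursor Rn45s took 2.56% to 8.40% of the reads at P6 and 0.378% to 7.77% with stabilized beta-catenin. Normalized counts are reads divided by a size factor of the library, so they compare one gene between libraries and not different genes with each other.

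The label of the tissue was checked on marker genes. Of 12 cardiomyocyte markers, 8 were higher with stabilized beta-catenin than at P6 and none lower, with a median log2 fold change of stabilized beta-catenin over P6 (log2FC) of 0.91. Under quantile normalization 3 were higher and 2 lower, and under total-count scaling 7 and 2. The summed level of these markers was 1458801 to 1499563 at P6, 2502133 to 2552077 with stabilized beta-catenin and 2068679 to 2935400 in the adult control. Of 8 thymus markers none passed the filter on low values, and of 8 lung markers 2 did. Libraries of 1 group differed in sex-linked genes. The Y-linked Ddx3y had 0, 0 and 811 normalized counts in P6 libraries 1, 2 and 3 and 2413, 1.71 and 1231 in stabilized libraries 1, 2 and 3. Xist, the RNA of the inactive X chromosome, had 24100.4, 19551 and 14.9 at P6 and 11, 3711 and 546 with stabilized beta-catenin. In the adult control Ddx3y had 0.833, 0 and 0 and Xist 1665, 7920.1 and 4552. The P6 and stabilized libraries were thus mixed in Ddx3y, whereas all 3 control libraries were at or near 0. With the Y-linked level as a covariate, added after the data were seen, 4582 genes were higher and 4535 lower.

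Most genes differed. With limma on log2(normalized count + 1) and Benjamini-Hochberg adjusted p under 0.05, 4882 of 13367 genes (36.5%) were higher with stabilized beta-catenin than at P6 and 4784 (35.8%) were lower. Every count of list members against P6 below is to be read beside these shares. In the mitosis, replication, G1, imprinted, collagen and elastic fibre lists, fewer members passed the filter against adult control than against P6. Some of their members thus needed P6 libraries to pass, and the counts of lower members and medians of these lists are descriptions. The libraries of both groups did not overlap for 10292 genes (77%). At least 2-fold differences were called for 2063 genes (15.4%) that were higher and 2505 (18.7%) that were lower. At least 16-fold differences were called for 78 and 81, and at least 64-fold differences for 12 and 13. The median log2 fold change over all genes tested was 0.0019 and the median absolute change 0.69, with a median SE of 0.14. Scaling by total counts moved the median of all genes to -0.40 and the split to 2946 higher and 6850 lower. Beside this, each in its own fit that shares libraries with the comparison, stabilized beta-catenin against adult control gave 193 genes higher (1.49% of 12971) and 40 lower (0.308%), 1.8% in either direction, and P6 against adult control gave 4182 higher (31.2% of 13398) and 4198 lower (31.3%), 62.5% in either direction.

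**Figure D1:**
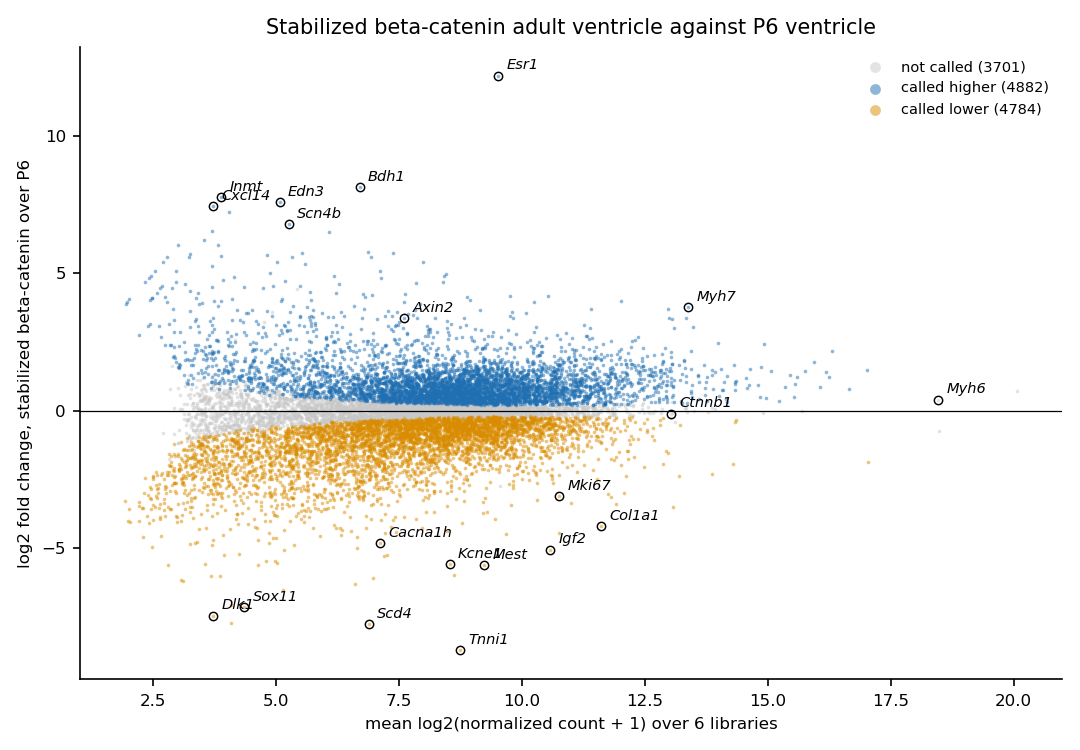
Each point is 1 of 13367 genes, placed by its mean log2(normalized count + 1) over the 6 libraries (x axis) and its log2 fold change of stabilized beta-catenin over P6 (y axis), with called genes in blue (4882 higher) and orange (4784 lower). Esr1 stands at 12.19 at the top and Tnni1 at -8.72 at the bottom, while Ctnnb1 lies near 0; the values of Inmt and Cxcl14, with no read at P6, and of Dlk1, with none in the stabilized libraries, depend on the added count of 1.

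Axin2 and a part of the other beta-catenin targets were higher than in the neonatal heart, while other targets were lower. Axin2, which encodes a scaffold of the beta-catenin destruction complex and is a standard reporter of the pathway, had 61.7, 57.8 and 60.9 normalized counts in the P6 libraries, 50.8, 92 and 88.6 in the adult control and 489, 670.0 and 739.5 with stabilized beta-catenin. Every stabilized library was above every P6 and control library, and P6 and control overlapped. Axin2 was 633 ± 129 with stabilized beta-catenin against 60.1 ± 2.04 at P6 (mean ± SD, n = 3; log2FC 3.35, SE 0.16, adjusted p = 1.3e-07). Transcripts of Ctnnb1, the gene of beta-catenin, were at 8681, 9053 and 8333 at P6 and 8117, 8391 and 7626 with stabilized beta-catenin, where the groups overlapped and the difference was not called (log2FC -0.11, SE 0.09, adjusted p = 0.289). Under total-count scaling and under quantile normalization it was called lower.

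Of 18 Wnt target genes tested, 9 were higher and 7 lower, beside 36.5% higher and 35.8% lower over all genes, with a median log2FC of 0.42 that came to 0.02 under total-count scaling, where 8 were higher and 8 lower. Sp5, a zinc finger factor and direct target, had 3 reads in all P6 libraries and 89 in the stabilized libraries, a ratio of 16.1 with a 95% counting interval of 5.34 to 79.7. Its normalized counts were 1.37, 1.45 and 1.49 at P6 and 26.1, 20.5 and 23.1 with stabilized beta-catenin (log2FC 3.31), and it passed the filter through the stabilized libraries alone. Bambi, a decoy receptor of the TGF-beta family, was 243 ± 31.1 at P6, 262 ± 73.7 in the adult control and 1154 ± 36.1 with stabilized beta-catenin (log2FC 2.25, SE 0.11, adjusted p = 1.5e-07). Also higher were Wisp2 (log2FC 4.48), whose value was 3.89 without stabilized library 2 or P6 library 3, Tnfrsf19 (1.92), Ccnd2, the gene of cyclin D2 (1.70), Wif1 (1.42), Kremen1 (0.90) and Lgr6 (0.42). Wisp2, Kremen1 and Lgr6 were not called against the adult control in that fit (adjusted p = 0.283, 0.645 and 0.504), whereas Axin2, Bambi, Tnfrsf19, Ccnd2 and Wif1 were (adjusted p from 0.00189 to 0.0458).

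The other targets were higher in the neonate. Nkd1, Nkd2 and Apcdd1, which encode inhibitors of Wnt signalling, Myc, Cd44 and Ccnd1 were all lower with stabilized beta-catenin than at P6, with log2FC of -1.75, -0.79, -1.35, -1.26, -0.78 and -0.38. The matricellular gene Wisp1 had 688, 674 and 664 at P6, 39.2, 50.5 and 66.2 in the adult control and 377, 313 and 389.9 with stabilized beta-catenin. It was the one target that was both called above adult control (log2FC 2.79, adjusted p = 0.00131) and called below P6 (log2FC -0.91, SE 0.11, adjusted p = 2.61e-05). Tcf7 and Znrf3 were not called (log2FC 0.41 and -0.04). Within the machinery of the pathway, 11 of 21 genes of beta-catenin, TCF/LEF factors and the destruction complex were lower and 4 higher, median log2FC -0.34, and total-count scaling left 17 lower and none higher. Tcf7l1, mostly a repressor among the TCF factors, was 36.8 ± 23.7 against 180.0 ± 16.5 at P6 (log2FC -2.44, SE 0.36, adjusted p = 0.000142), and Tcf7l2 had a log2FC of -0.89. Of 27 ligands, receptors and antagonists tested, 13 were lower, led by the receptor Ror2 (-2.65) and the antagonist Sfrp2 (-2.58), and 9 were higher, led by the ligand Wnt11 (2.89). The count of 9 was 5 without P6 library 1 and 3 under total-count scaling.

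The promoters of Axin2 and Sp5 are shown because the stabilized libraries held the highest levels of both genes. RefSeq promoters (GRCm38.p6, 250 bases before to 50 after the start) were listed for 5 of the 9 higher targets. Searched on both strands were the TCF/LEF motif ATCAAAG, the CHR motif of cell cycle promoters TTTGAA, and CCAAT, and matches are in capitals. Sp5 has CTTTGAT, the TCF/LEF motif on the opposite strand, 104 bases before its start, and a CCAAT box at -88, whereas Axin2 has ATTGG, the opposite strand of CCAAT, and no TCF/LEF match in this window. The TCF/LEF motif was in 1 of the 5 and in 3.72% of 27025 promoters of all genes. A match is a description of letters and not a measured site.
Axin2 (chr11:108920099-108920398, plus strand): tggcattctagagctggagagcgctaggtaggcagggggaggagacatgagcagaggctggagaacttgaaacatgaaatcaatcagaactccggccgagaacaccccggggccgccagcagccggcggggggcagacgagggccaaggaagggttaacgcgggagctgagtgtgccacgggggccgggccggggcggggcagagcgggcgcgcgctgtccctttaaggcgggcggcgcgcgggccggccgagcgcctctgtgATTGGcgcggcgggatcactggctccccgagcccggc
Sp5 (chr2:70474673-70474972, plus strand): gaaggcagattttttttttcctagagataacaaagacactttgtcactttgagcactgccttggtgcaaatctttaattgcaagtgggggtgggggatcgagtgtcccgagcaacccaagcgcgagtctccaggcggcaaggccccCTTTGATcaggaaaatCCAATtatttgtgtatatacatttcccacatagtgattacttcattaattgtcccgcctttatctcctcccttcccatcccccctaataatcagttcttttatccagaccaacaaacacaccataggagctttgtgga

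Beyond the Wnt list, 30 genes called higher than P6, averaging 100 normalized counts or more, had every stabilized library at 2 times the highest adult control library or more. Among the 10 with the largest rise over P6 were Esr1, Edn3, Sypl2, Slc9a2, Shisa3, Myh7, Arhgap9, Ndnf and Axin2. Esr1, the gene of estrogen receptor alpha, had 6.85, 13 and 10.4 at P6, 66.7, 49.5 and 62.6 in the adult control and 71149, 32011 and 55613 with stabilized beta-catenin (log2FC 12.19, SE 0.28, adjusted p = 6.43e-09). No groups overlapped, and the stabilized libraries lay far above both others. A count per symbol does not separate transcripts that share the sequence of a gene, and the source of these reads was not tested. Edn3, an endothelin ligand, had 3 reads in all P6 libraries and 1915 in the stabilized libraries, a ratio of 347 (95% counting interval 119 to 1684), and its normalized counts were 4.17, 18.2 and 30.2 in the adult control and 341, 529 and 567 with stabilized beta-catenin. Ndnf, a secreted neurotrophic and vascular factor, was 71.1 ± 3.05 at P6, 162 ± 40.2 in the adult control and 767 ± 182 with stabilized beta-catenin (log2FC 3.39, SE 0.16, adjusted p = 1.39e-07). Among growth factor genes, the vascular ligand Angpt1 was 3799 ± 1142 against 203 ± 35 at P6 (log2FC 4.19, SE 0.21, adjusted p = 1.66e-07) and Fst, the activin antagonist follistatin, 98.1 ± 24.2 against 3.32 ± 0.683 (log2FC 4.50), and Angpt1 was also called above adult control (adjusted p = 0.02).

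**Figure D2:**
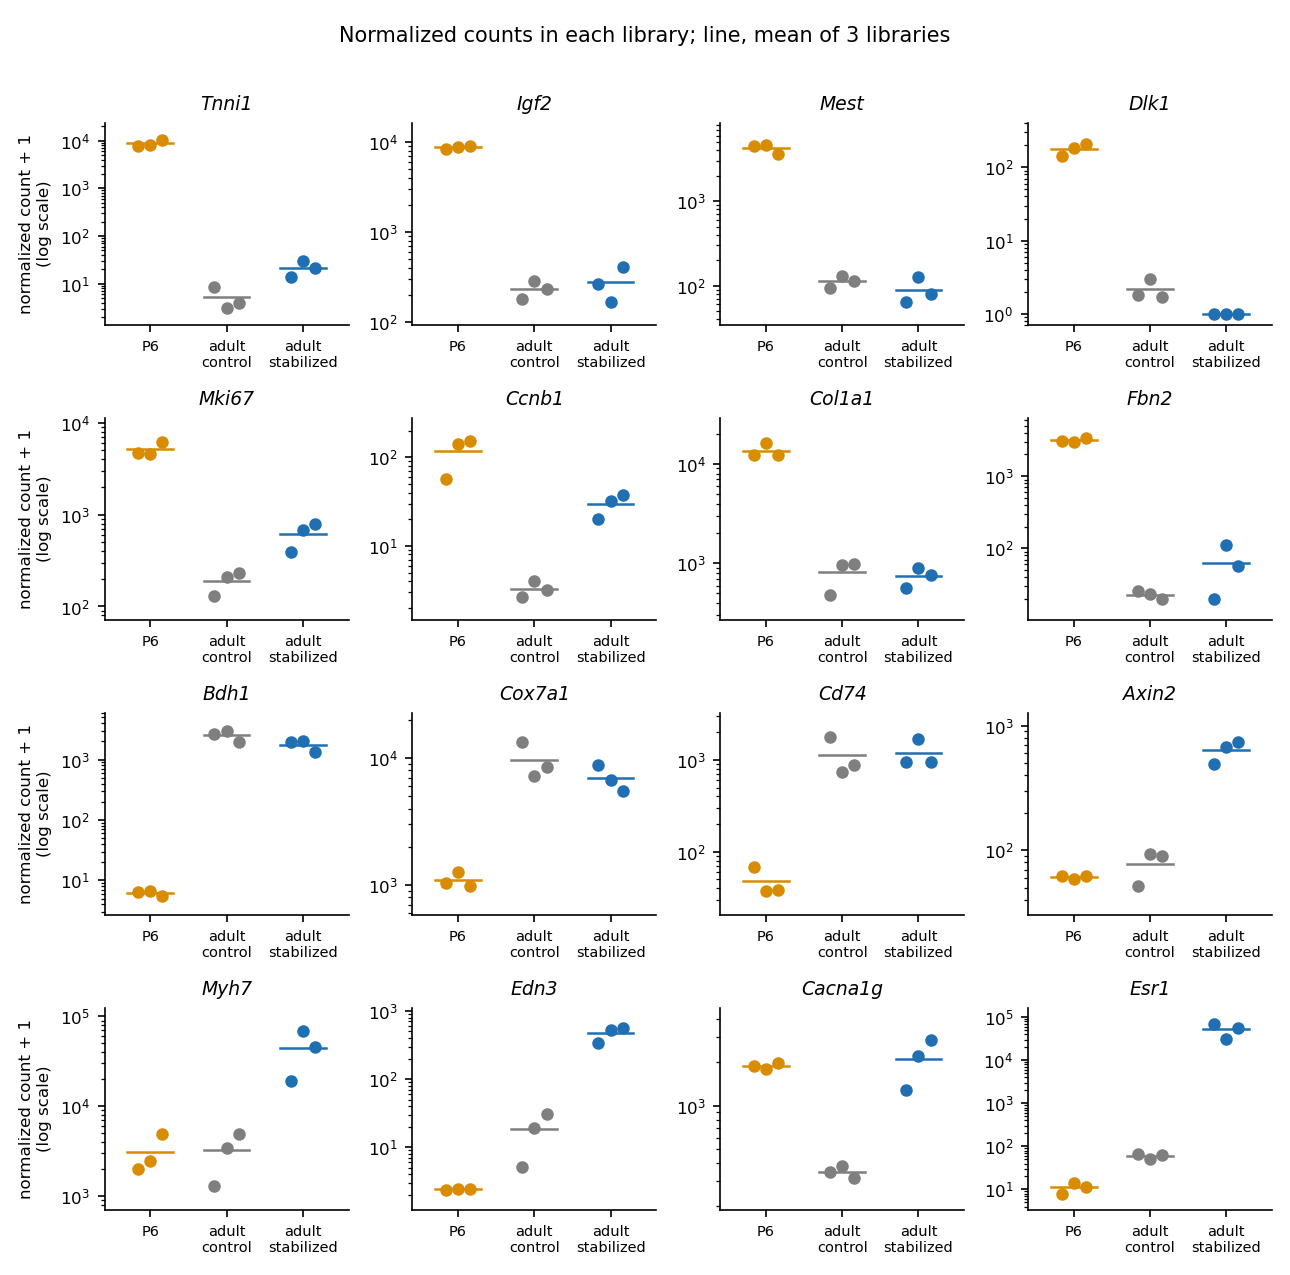
Normalized count + 1 on a log axis for 16 genes in each of the 9 libraries, with a line at the mean of the 3 libraries of each group. Tnni1, Igf2, Mest, Dlk1, Col1a1 and Fbn2 are highest at P6, Bdh1, Cox7a1 and Cd74 are high in both adult groups, Axin2, Myh7, Edn3 and Esr1 are high in the stabilized group, and Cacna1g is high at P6 and in the stabilized group.

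The adult heart with stabilized beta-catenin lacked much of the neonatal cell cycle program. Of 52 mitosis and cytokinesis genes tested, 51 were lower than at P6 and 1 was higher, with a median log2FC of -2.52, beside 35.8% lower and 36.5% higher over all genes and a median of 0.0019. Mki67, a marker of cycling cells, had 4681, 4515 and 6239 normalized counts at P6, 128, 207 and 229 in the adult control and 389.9, 673 and 795 with stabilized beta-catenin. All 3 groups were apart, with the stabilized libraries nearer to the control than to P6 on the log2 scale (log2FC -3.10, SE 0.23, adjusted p = 1.42e-06 against P6). The largest falls were those of Ect2, a regulator of cytokinesis (305 ± 73 at P6 and 23.1 ± 8.38 with stabilized beta-catenin, log2FC -3.70), the kinesin gene Kif18b (-3.54), the kinase gene Melk (-3.53) and Espl1, the gene of separase (-3.40). Pttg1, the gene of securin, was the 1 higher member (504 ± 106 against 240.2 ± 19.9, log2FC 1.05, SE 0.15, adjusted p = 0.000109), and it was higher still in the adult control at 896 ± 296.

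The stabilized group stood between adult control and P6 in this list. In its own fit, 31 of 50 mitosis genes were called higher than adult control, with a median log2FC of 1.78. P6 against adult control gave 51 of 52 higher and a median of 4.37. Over all genes, these fits called 1.49% and 31.2% higher. Ccnb1, the gene of cyclin B1 and chosen after its values were seen, had 56.2, 139 and 151 at P6, 1.67, 3.03 and 2.16 in the adult control and 19, 30.8 and 36.1 with stabilized beta-catenin. All stabilized libraries were above all control libraries and below all P6 libraries (log2FC -1.90, SE 0.37, adjusted p = 0.000995 against P6). Of 38 DNA replication genes, 34 were lower than at P6 and 1 higher, median log2FC -1.13, led by Tk1, the gene of a thymidine kinase (197 ± 23.7 at P6, 14.2 ± 3.79 in the adult control, 18.1 ± 1.55 with stabilized beta-catenin, log2FC -3.37), Chaf1b (-2.80), Tyms (-2.72) and Lig1 (-2.46). Gins4 was the higher one (0.59, not called under total-count scaling). Against adult control 14 of 37 replication genes were called higher, beside 1.49% of all genes, with a median of 0.80.

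Regulators of the cell cycle were mostly lower than at P6 as well. Of 20 G1 cyclins, CDKs and E2F factors tested, a list without Ccnd2, 18 were lower and 1 higher, median log2FC -1.85. Over all genes 35.8% were lower and 36.5% higher. Mybl2, a factor of late cell cycle genes, was 90.2 ± 18.1 at P6, 3.50 ± 2.62 in the adult control and 4.62 ± 2.88 with stabilized beta-catenin (log2FC -4.14). E2f7 (-3.60), Foxm1 (-3.44) and E2f2 (-3.06) followed, and Rb1, the gene of the retinoblastoma protein, was the higher one (0.60, not called under total-count scaling). Cyclin genes did not all follow. Ccnd2, given above among the Wnt targets, was not counted in this list and was higher than at P6. It was 4735 ± 333 at P6, 3134 ± 1147 in the adult control and 15677 ± 4026 with stabilized beta-catenin. Ccnd1 was lower than at P6 (1788 ± 276 against 2318 ± 115). Ccne2, the gene of cyclin E2, was 152 ± 22.9 at P6 and 138 ± 14 with stabilized beta-catenin, with overlapping libraries (log2FC -0.13, SE 0.15, adjusted p = 0.457), and was called lower under total-count scaling. Of 4 CDK inhibitor genes tested, Cdkn1a was lower (-0.67) and so was Cdkn2c (-0.87), and Cdkn1b and Cdkn1c were not called (0.06 and -0.24). Adjusted p for Cdkn1a was 0.16 with all 3 groups in 1 fit.

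Promoters of mitosis genes are shown for Mki67 and for 3 of the 4 with the largest falls, all of which hold matches of the cell cycle motifs. RefSeq promoters were listed for 42 of the 51 lower mitosis genes. The CHR motif TTTGAA was in 32 of these 42 (76.2%) and in 18.1% of all 27025 promoters, and CCAAT was in 30 (71.4%) and in 37.9% of all. The TCF/LEF motif ATCAAAG was in 1 (2.38%) and in 3.72% of all. The promoter of Melk held no match of the 3 motifs. TTTGAA and ATTGG can overlap, which does not occur in the 4 below, and capitals again mark matches on either strand.
Mki67 (chr7:135716330-135716629, minus strand): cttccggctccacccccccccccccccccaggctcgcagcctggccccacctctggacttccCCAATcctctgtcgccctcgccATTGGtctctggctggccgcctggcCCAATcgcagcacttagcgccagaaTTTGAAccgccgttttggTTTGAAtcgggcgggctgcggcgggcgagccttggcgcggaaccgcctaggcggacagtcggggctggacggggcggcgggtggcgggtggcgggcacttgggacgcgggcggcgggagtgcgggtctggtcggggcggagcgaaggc
Ect2 (chr3:27153829-27154128, minus strand): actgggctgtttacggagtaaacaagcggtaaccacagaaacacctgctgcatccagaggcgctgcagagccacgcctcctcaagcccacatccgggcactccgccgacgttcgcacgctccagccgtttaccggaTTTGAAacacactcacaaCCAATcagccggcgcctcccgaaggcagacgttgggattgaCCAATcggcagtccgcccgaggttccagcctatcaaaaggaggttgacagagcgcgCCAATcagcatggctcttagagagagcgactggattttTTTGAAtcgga
Kif18b (chr11:102925075-102925374, minus strand): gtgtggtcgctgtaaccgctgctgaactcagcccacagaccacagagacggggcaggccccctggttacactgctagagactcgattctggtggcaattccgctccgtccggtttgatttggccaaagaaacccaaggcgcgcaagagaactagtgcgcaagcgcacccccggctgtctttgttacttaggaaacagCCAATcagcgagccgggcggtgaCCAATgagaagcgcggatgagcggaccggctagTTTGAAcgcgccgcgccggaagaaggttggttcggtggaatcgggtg
Espl1 (chr15:102296043-102296342, plus strand): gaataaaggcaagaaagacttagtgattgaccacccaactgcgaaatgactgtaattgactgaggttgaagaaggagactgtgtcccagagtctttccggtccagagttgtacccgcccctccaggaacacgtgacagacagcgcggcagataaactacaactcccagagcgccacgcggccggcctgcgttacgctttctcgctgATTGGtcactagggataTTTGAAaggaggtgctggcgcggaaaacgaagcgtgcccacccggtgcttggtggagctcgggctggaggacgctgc

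**Figure D3:**
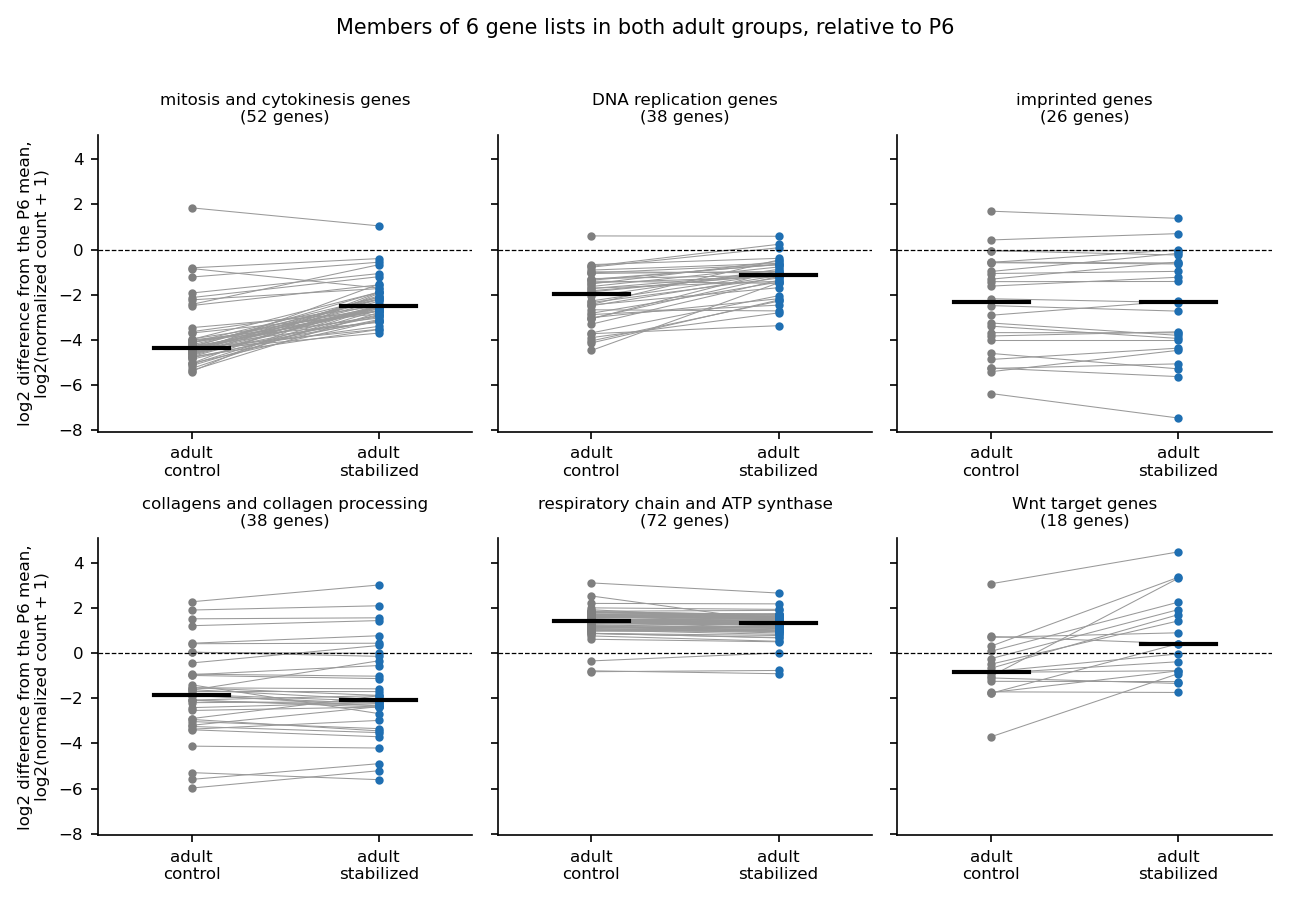
For 6 gene lists, each line joins 1 gene's mean log2(normalized count + 1) in the adult control and in the stabilized group, both as a difference from its P6 mean (dashed line at 0), with black bars at the medians. In the mitosis panel the median rises from the adult control toward P6 and ends at -2.52, whereas in the imprinted, collagen and respiratory chain panels both adult groups lie at similar distances from P6.

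Regulators of fetal growth were lower too. Of 16 fetal regulators of growth and identity tested, 14 were lower and 1 higher, median log2FC -2.17. Over all genes 35.8% were lower and 36.5% higher. Only 12 of the 16 passed the filter in the fit of stabilized beta-catenin against adult control. The others needed P6 libraries to pass, so the count of 14 and the median are descriptions. Igf2bp3, Sox11 and Igf2bp1 passed through the P6 libraries alone and had to be lower. Igf2bp3, which encodes a fetal RNA-binding protein of Igf2 mRNA, had 516 reads in the P6 libraries and 1 in the stabilized libraries, a ratio of 949 with a 95% counting interval of 170 to 37566. Its normalized counts were 204, 234 and 304 at P6 and 0, 0 and 0.593 with stabilized beta-catenin, so the groups were far apart. Sox11, a factor of embryonic progenitor cells, was 243 ± 5.80 at P6 and had 0, 2.02 and 0 in the adult control and 0, 0.856 and 1.78 with stabilized beta-catenin (log2FC -7.14). Igf2bp1, with 3 reads in the stabilized libraries, Marcksl1 (log2FC -3.75) and Gpc3 (-3.28) were also lower. Tbx20, a cardiac T-box factor, was the 1 higher member (0.31), and its direction reversed under total-count scaling (-0.09) and quantile normalization (-0.40). Its call was lost without stabilized library 2 or 3 or without P6 library 1 or 2.

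Imprinted genes, which are expressed from one parental allele and many of which promote or restrain fetal growth, were lower as a rule. Of 26 tested, 20 were lower, 2 higher and 4 not called, median log2FC -2.31, the same with Dlk1 and Usp29, which had no read in the stabilized libraries, placed at their bounds. Dlk1, an inhibitor of differentiation, had 141, 184 and 206 at P6 and 0, 0 and 0 with stabilized beta-catenin and was at least 226-fold lower against a floor of 3 reads over the stabilized libraries. Igf2, the fetal growth factor, had 8469, 8842 and 9021 at P6, 182, 282 and 229.7 in the adult control and 265, 168 and 406 with stabilized beta-catenin. Both adult groups were below every P6 library and overlapped each other (log2FC -5.06, SE 0.24, adjusted p = 1.47e-07 against P6, adjusted p = 0.883 against control). Mest was 4252 ± 498 at P6 and 88.3 ± 32 with stabilized beta-catenin (log2FC -5.63, SE 0.21, adjusted p = 4.74e-08), and the noncoding RNA Meg3 919.8 ± 158 and 24.3 ± 11.7 (log2FC -5.28, SE 0.30, adjusted p = 3.4e-07). Copg2 (0.70) and Zrsr1 (1.38) were higher. Over the 24 imprinted genes tested against adult control, the median log2FC was 0.05.

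The insulin-like growth factor axis was mixed. Igf1 was lower (293 ± 25.5 against 1165 ± 103, log2FC -1.99), as were Igfbp4 (-1.15) and the receptor gene Igf1r (-0.94). Igfbp5, a binding protein of these factors, had 3806, 4334 and 3805 at P6, 875, 2042 and 1737 in the adult control and 9163, 7377 and 17415 with stabilized beta-catenin, so the stabilized libraries were above both other groups (log2FC 1.41, SE 0.25, adjusted p = 0.000524). The docking protein gene Irs1 behaved alike in level, with 1860.4 ± 106, 2059 ± 92.2 and 5037 ± 601 in the same order (log2FC 1.43, SE 0.10, adjusted p = 1.26e-06). Igfbp6 was higher too (log2FC 2.55), and Insr was (0.36) but reversed under total-count scaling (-0.05) and quantile normalization (-0.25).

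The stabilized heart also lacked the matrix program of the neonate. Of 38 collagen and collagen processing genes tested, 27 were lower and 5 higher, median log2FC -2.09, beside 35.8% lower and 36.5% higher over all genes. In the fit of stabilized beta-catenin against adult control 34 genes of this list passed the filter. Some of the 38 thus needed P6 libraries to pass, so the count of 27 and the median are descriptions. Col1a1, a chain of type I collagen, had 12184, 16293 and 12215 at P6, 481, 962 and 990.1 in the adult control and 563, 901 and 758 with stabilized beta-catenin (log2FC -4.21, SE 0.17, adjusted p = 6.17e-08). Both adult groups lay far below P6 and overlapped. Other large falls were those of Col26a1 (-5.61), Col11a1 (-5.21) and the prolyl hydroxylase gene P4ha3 (-4.90, and -4.27 and -5.58 without stabilized library 1 or 2). Col8a1, a short chain collagen of vessel walls, went the other way, with 104, 172 and 108 at P6, 372, 658 and 902 in the adult control and 686, 1498 and 1014 with stabilized beta-catenin (log2FC 3.01, SE 0.27, adjusted p = 4.52e-06). P4ha1 (1.56), P4ha2 (1.44), Pcolce2 (2.09) and Plod2 (0.43), which process collagen, were the other higher members.

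Of 42 elastic fibre, proteoglycan and matricellular genes, 23 were lower and 11 higher, median log2FC -1.02, and the higher count was 7 under total-count scaling. Fbn2, a microfibril protein of developing tissue, had 3070.1, 2990.3 and 3331 at P6, 25, 22.2 and 18.7 in the adult control and 19, 110.4 and 55.7 with stabilized beta-catenin (log2FC -5.96, SE 0.46, adjusted p = 1.96e-06, and -5.30 without stabilized library 1). The proteoglycan gene Acan had 421 reads at P6 and 2 with stabilized beta-catenin, a ratio of 387 (95% counting interval 107 to 3208). Tnc, the gene of tenascin C, was 25.3 ± 9.67 against 955 ± 147 (log2FC -5.25, SE 0.25, adjusted p = 1.48e-07), and Mfap2 had a log2FC of -5.48, or -4.86 without stabilized library 1. Among the higher members, Cilp had 52.1, 92.5 and 38.6 at P6 and 183, 1432 and 361 with stabilized beta-catenin (log2FC 2.98, SE 0.61, adjusted p = 0.00126), with library 2 well above the other two, and its log2FC was 3.63 and 2.15 without stabilized library 1 or 2. Comp (2.50) overlapped between groups and lost its call without P6 library 1 (adjusted p = 0.065). Dcn (1.31) and Fbln1 (1.52) were higher as well.

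Markers of other cell types differed beside these genes. All 11 epicardial markers tested were lower (median log2FC -1.99), beside 35.8% of all genes. Only 5 of them passed the filter in the fit of stabilized beta-catenin against adult control. The others needed P6 libraries to pass, so the count of 11 is a description. The summed level was 1351 to 1625 at P6, 289 to 341 with stabilized beta-catenin and 235 to 311 in the adult control, and none was at 0 in a whole group. The count of lower markers was 5 without P6 library 2 and 6 without P6 library 3. In these fits the filter was applied anew, which can take markers out of the test. Of 14 fibroblast markers 5 were higher and 5 lower, near the shares of all genes (36.5% higher and 35.8% lower). Their summed level was 34126 to 43979 at P6 and 43593 to 51620.0 with stabilized beta-catenin. Endothelial markers gave 3 higher and 10 lower of 16, and mural markers 4 higher and 9 lower of 13, with 1 higher without P6 library 3. In whole ventricles fewer cells of a type and less RNA per cell cannot be told apart, and the part of these markers in the matrix result was not tested.

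**Figure D4:**
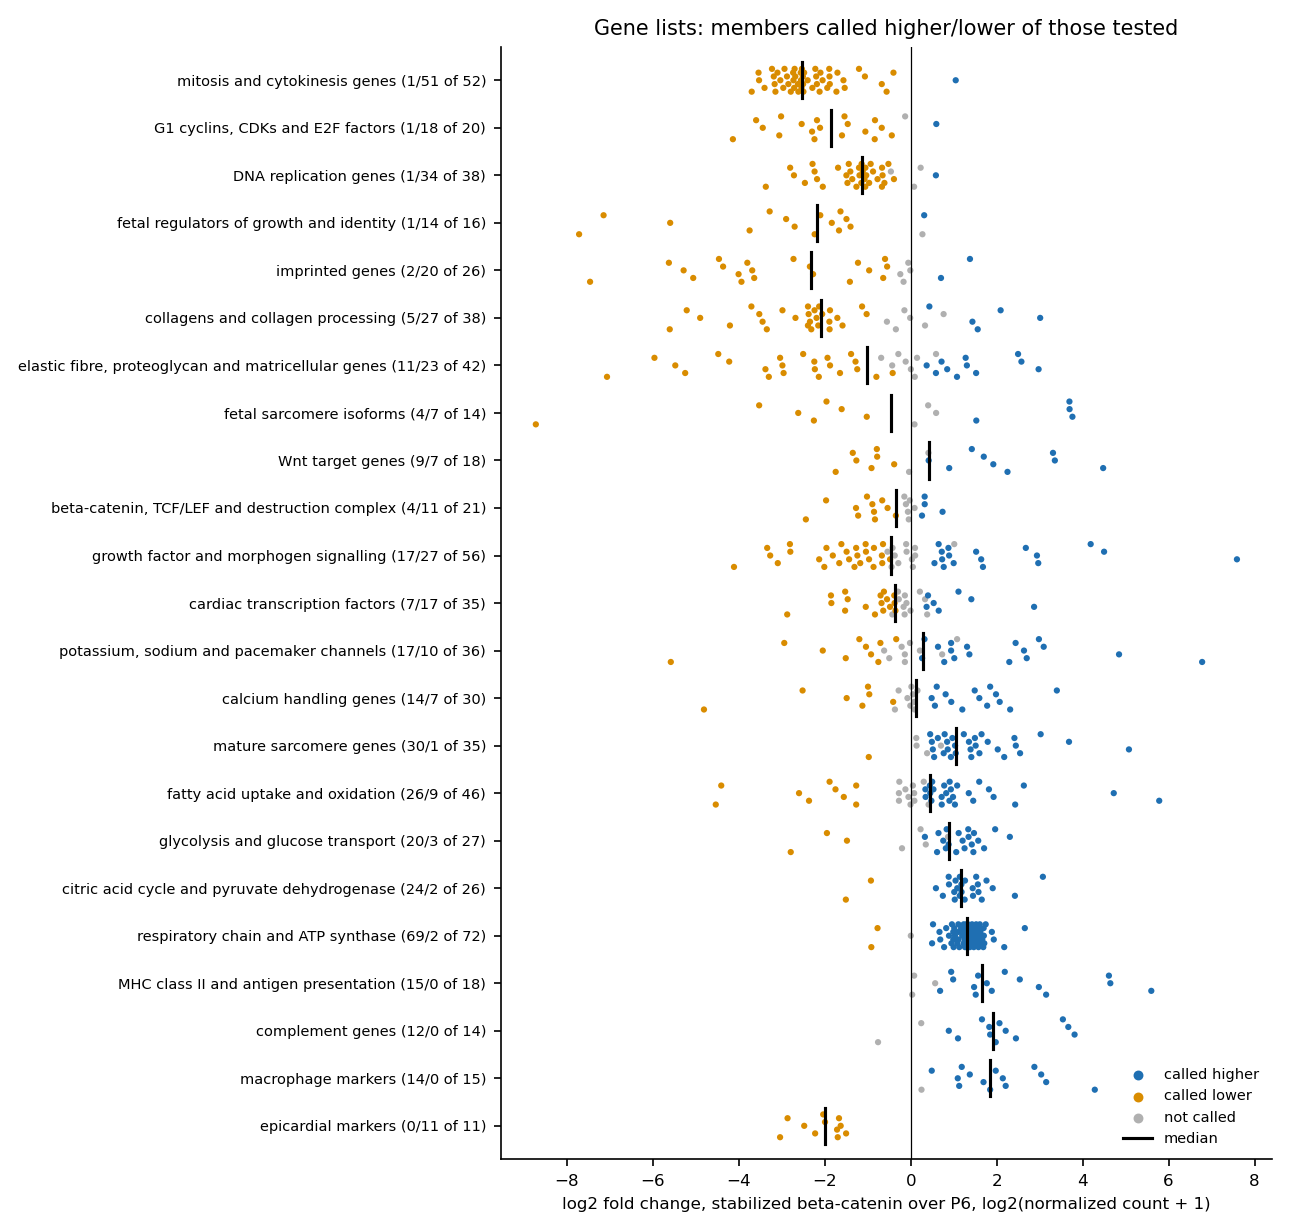
Log2 fold change of stabilized beta-catenin over P6 for the tested members of 23 gene lists (points; blue called higher, orange called lower, grey not called), with a black bar at the median and the counts of higher and lower members beside each name. Cell cycle, fetal, imprinted, matrix and epicardial lists have medians to the left of 0, and mature sarcomere, mitochondrial, antigen presentation, complement and macrophage lists to the right.

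Isoforms of the contractile apparatus were measured as pairs. Slow skeletal troponin I, Tnni1, the neonatal inhibitor subunit of the thin filament, had 7878, 8074 and 10534 at P6, 7.50, 2.02 and 2.88 in the adult control and 13, 29.1 and 20.1 with stabilized beta-catenin, the largest fall among genes called with a mean of at least 100 (log2FC -8.72, SE 0.23, adjusted p = 1.37e-08). Its adult counterpart Tnni3 was 52334 ± 5427 against 17224 ± 575 (log2FC 1.60, SE 0.13, adjusted p = 2.15e-06). The log2 ratio of Tnni1 to Tnni3 within a library was 10.32 lower with stabilized beta-catenin than at P6, without overlap. With 3 libraries against 3 an exact two-sided permutation test can give no p below 0.1, which is the value for all pairs described here.

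For myosin and actin the ratio of the fetal to the adult isoform was above P6. Myh7, the beta myosin heavy chain of the embryonic mouse ventricle and of stressed adult hearts, had 2001, 2448 and 4928 at P6, 1285, 3455 and 4946 in the adult control and 19152, 68500.3 and 46017 with stabilized beta-catenin. Every stabilized library was above every P6 library (log2FC 3.76, SE 0.43, adjusted p = 2.55e-05), and P6 and adult control overlapped. Myh6, the alpha chain of the adult mouse ventricle, was 314749 ± 29284 at P6 and 416140.0 ± 21418 with stabilized beta-catenin, which was not called (log2FC 0.41, SE 0.28, adjusted p = 0.216) although limma without trend, edgeR and DESeq2 called it higher. The ratio of Myh7 to Myh6 was 3.36 higher in log2 with stabilized beta-catenin than at P6, and the ratio of skeletal actin Acta1 to cardiac actin Actc1 was 2.91 higher. Acta1 was at 767 ± 177 at P6, 2640.2 ± 1642 in the adult control and 10616 ± 5255 with stabilized beta-catenin (log2FC 3.70, SE 0.31, adjusted p = 2.87e-06). The libraries of both groups did not overlap in either ratio.

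The other pairs described had a lower ratio of early to adult member with stabilized beta-catenin than at P6. The ratios of atrial to ventricular light chains were lower with stabilized beta-catenin than at P6 by 4.76 for Myl7 to Myl2 and by 2.58 for Myl4 to Myl3. Those of ubiquitous to muscle cytochrome oxidase subunits were lower by 2.28 (Cox6a1 to Cox6a2), 1.32 (Cox7a2 to Cox7a1) and 2.17 (Cox8a to Cox8b). The ratio of Cpt1a to Cpt1b was lower by 2.06, of Ckb to Ckm by 1.51, of Slc2a1 to Slc2a4 by 0.97 and of Slc25a5 to Slc25a4 by 0.88. The ratio of Rpl3 to its muscle paralog Rpl3l was lower by 7.29, or by 8.26 and 6.58 without stabilized library 2 or 3, and Rpl3l alone rose from 66.2 ± 5.19 to 1735 ± 351 (log2FC 4.67, SE 0.15, adjusted p = 2.52e-08). None of these pairs overlapped between groups. Reads of Rpl3, Pgam1 and Eno1 may be shared with near-identical copies elsewhere in the genome, so the Rpl3 ratio is uncertain and the pairs of the other two are not described.

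**Figure D5:**
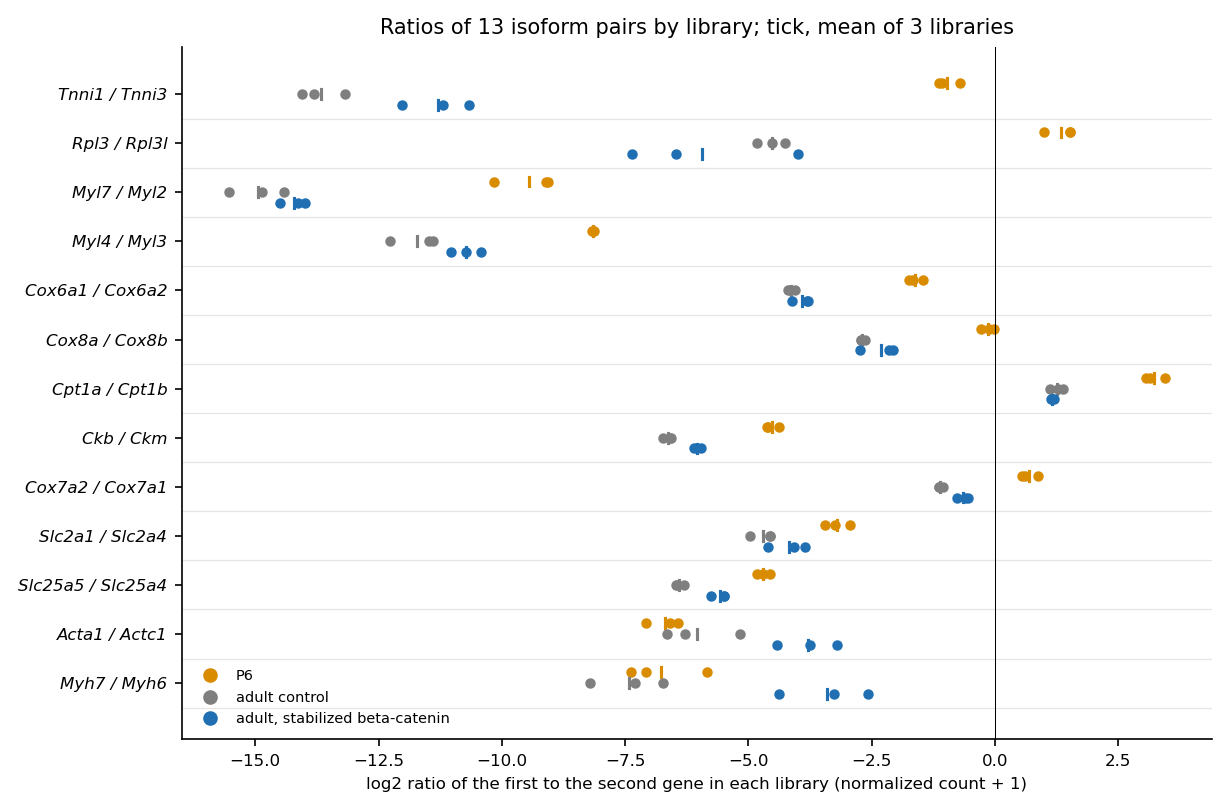
Log2 ratio of the first to the second gene (normalized count + 1) in each library for 13 pairs whose genes both passed the filter, with a tick at the mean of 3 libraries. The stabilized libraries lie to the left of the P6 libraries for 11 pairs and to the right for Acta1 / Actc1 and Myh7 / Myh6.

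Other sarcomere genes were above the neonatal level. Of 35 mature sarcomere genes, 30 were higher and 1 lower, median log2FC 1.05, beside 36.5% and 35.8% of all genes. The counts were 24 and 2 under total-count scaling and 18 and 5 under quantile normalization. Myot, the gene of the Z-disc protein myotilin, had 21.9, 24.6 and 22.3 at P6, 462, 561 and 1096 in the adult control and 1109, 839 and 562 with stabilized beta-catenin (log2FC 5.08, SE 0.22, adjusted p = 7.57e-08). Both adult groups were above P6 and overlapped. Xirp2 (3.68), Myoz2 (3.02) and Tcap (2.54), also of the Z-disc and intercalated disc, followed, and Synpo2l was the lower one (-0.98). Of 14 fetal sarcomere genes 7 were lower and 4 higher, the latter being Myh7, Acta1, the light chain Myl1 (3.69) and Nrap (1.53).

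In excess of the neonate was the mitochondrial program. Of 72 respiratory chain and ATP synthase genes tested, 69 were higher and 2 lower, median log2FC 1.31, which was 0.90 under total-count scaling and 0.97 under quantile normalization. Cox7a1, the muscle isoform of a cytochrome oxidase subunit, had 1046, 1260.3 and 991 at P6, 13341, 7285 and 8561 in the adult control and 8760.1, 6729 and 5543 with stabilized beta-catenin (log2FC 2.65, SE 0.16, adjusted p = 4.14e-07). Adult groups overlapped and both were above every P6 library. Cox8b (log2FC 2.18) and Ndufb5 of complex I (1.93) followed, and the 2 lower members were Cox6a1 (-0.77), the ubiquitous isoform, and Cox7c, whose reads may be shared with copies elsewhere in the genome and whose call was lost in 10 alternatives, without stabilized library 2 or 3 or any 1 P6 library among them (adjusted p up to 0.43). Of 26 genes of the citric acid cycle and pyruvate dehydrogenase, 24 were higher and 2 lower, median 1.18. Pcx, the gene of pyruvate carboxylase, was 780.1 ± 80.5 against 91.7 ± 9.45 (log2FC 3.07, SE 0.12, adjusted p = 6.06e-08), and Mpc1, of the mitochondrial pyruvate carrier, 416 ± 41.7 against 77.2 ± 14.4 (2.42). The lower ones were Pdk3 (-1.51) and Pdk4 (-0.93), kinases that switch pyruvate dehydrogenase off.

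Ketone body genes were mostly higher. Oxct1, the step that makes ketone bodies usable, was 27259 ± 2942 with stabilized beta-catenin against 2675 ± 163 at P6 (log2FC 3.35, SE 0.11, adjusted p = 2.52e-08). Bdh1, which interconverts the main ketone bodies, had 5.48, 5.78 and 4.46 normalized counts at P6, 2696, 2927 and 1932 in the adult control and 1967, 2026 and 1349.9 with stabilized beta-catenin (log2FC 8.14). The P6 libraries were below the minimum of 10, so Bdh1 passed through the stabilized libraries alone. Of 6 ketone genes 5 were higher and 1 lower, and the lower one had a log2FC of -3.96.

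Fatty acid genes were less uniform. Of 46 genes of uptake and oxidation, 26 were higher and 9 lower, median log2FC 0.45, which fell to 0.04 with 18 higher and 17 lower under total-count scaling and 0.11 with 19 and 17 under quantile normalization. Ces1d, a lipase of lipid droplets, had 12.3, 15.9 and 16.3 at P6, 2437, 2247 and 2374 in the adult control and 1744, 501 and 740.1 with stabilized beta-catenin (log2FC 5.78, SE 0.37, adjusted p = 6.4e-07). The long-chain acyl-CoA synthetase gene Acsl6 (4.72), the triglyceride synthesis gene Dgat2 (2.63) and Lpl, lipoprotein lipase (2.43), were higher as well. Among the lower genes, Angptl4, an inhibitor of lipoprotein lipase, was 38.9 ± 15.1 against 811 ± 144 (log2FC -4.41, SE 0.26, adjusted p = 3.77e-07), and Acot1 had 315, 359.9 and 499 at P6 and 43.1, 15.4 and 5.33 with stabilized beta-catenin (log2FC -4.53, SE 0.54, adjusted p = 3.45e-05, and -5.24 and -3.84 without stabilized library 1 or 3). Of 27 glycolysis and glucose transport genes 20 were higher and 3 lower, median 0.88, led by the insulin-responsive transporter Slc2a4 (6626 ± 1510.0 against 1318 ± 65.9, 2.31) and hexokinase Hk2 (1.96). Of 27 genes of creatine, adenylates and energy regulators 19 were higher and 4 lower, with the mitochondrial creatine kinase Ckmt2 at 3.37, the thyroid hormone receptor gene Thrb at 2.69 and its paralog Thra at -1.41. Against adult control the median log2FC was -0.10 for the respiratory chain, -0.07 for the citric acid cycle, -0.30 for fatty acid genes and 0.05 for ketone genes.

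Single channel genes differed widely in both directions. Of 36 potassium, sodium and pacemaker channel genes, 17 were higher and 10 lower, beside 36.5% and 35.8% of all genes, median log2FC 0.29, and under total-count scaling 14 and 15 with a median of -0.11. Scn4b, an auxiliary sodium channel subunit, had 2.74, 4.34 and 1.49 at P6, 881, 909.9 and 814 in the adult control and 1195, 193 and 282 with stabilized beta-catenin (log2FC 6.78). Stabilized library 1 was above the other two, and all 3 were above P6. The modulatory potassium channel subunit gene Kcnv2 (4.85) and Kcnd3 of the transient outward current (2.98) were higher too. Kcne1, an auxiliary subunit of the slow delayed rectifier, had 2626, 2843 and 2237 at P6, 93.3, 64.7 and 80.6 in the adult control and 42.1, 95.8 and 35.6 with stabilized beta-catenin (log2FC -5.58, SE 0.30, adjusted p = 2.15e-07).

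Of 30 calcium handling genes 14 were higher and 7 lower, beside 36.5% and 35.8% of all genes. The median log2FC was 0.12, which turned to -0.28 with 11 higher and 14 lower under total-count scaling and to -0.15 under quantile normalization. The pair of T-type calcium channel genes, which carry the low-voltage current of the immature ventricle, parted. Cacna1g had 1899.6, 1792 and 1975 at P6, 345, 380.1 and 315 in the adult control and 1290.0, 2198 and 2865 with stabilized beta-catenin, so the stabilized group overlapped with P6 and stood above control (log2FC 0.09, SE 0.23, adjusted p = 0.731 against P6, 95% interval -0.42 to 0.60). Without stabilized library 1 it was called higher than P6. Cacna1h had 746, 747 and 716, 156, 187 and 110.2 and 31.1, 12 and 42.7 in the same order and was below both P6 (log2FC -4.81, SE 0.35, adjusted p = 1.38e-06) and control (log2FC -2.50, adjusted p = 0.0287). Of the others, Cacna1s (3.40) and S100a1 (2.31) were higher and Cacna1d (-2.52) lower.

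Growth factor and transcription factor genes were found on both sides. Of 56 growth factor and morphogen genes 27 were lower and 17 higher, beside 35.8% and 36.5% of all genes, median log2FC -0.46. The neurotrophin receptor gene Ntrk3 (77 ± 7.76 at P6 and 3.67 ± 1.46 with stabilized beta-catenin, -4.11), the heparin-binding factors Mdk (-3.34) and Ptn (-3.27), and Inhba (-3.09), a subunit of activin, were lowest. Fgfrl1, a decoy receptor of fibroblast growth factors, was 189 ± 25.8 at P6, 273 ± 28.6 in the adult control and 1494 ± 291 with stabilized beta-catenin (log2FC 2.97, SE 0.15, adjusted p = 1.93e-07). Of 35 cardiac transcription factors 17 were lower and 7 higher, median -0.35, with Tead2 at -2.87, the metabolic regulator Klf15 at 2.87 and Hand2 at 1.41. Hand2 had 428, 499 and 570.3 at P6, 683, 464 and 531 in the adult control and 1277, 1190.3 and 1509 with stabilized beta-catenin, where the stabilized libraries were the highest. Of 20 DNA methylation and Polycomb genes 11 were lower and 5 higher, led by Dnmt3b (-2.53) and Tet3 (-2.21) on one side and Cbx7 (2.18) on the other. Of 16 genes of heart failure and hypertrophy 13 were higher and 1 lower, median 1.66. The adult control differed from P6 in the same direction. P6 against adult control gave 12 of 16 lower and 1 higher, with a median log2FC of -1.54, beside 31.3% lower and 31.2% higher over all genes. Stabilized beta-catenin against adult control gave 1 of 17 higher and 0 lower, with a median of 0.42, beside 1.49% and 0.308% of all genes. Within this list Nppa, the gene of atrial natriuretic peptide, had 889.5, 908 and 1138 at P6, 1644, 2576 and 7417 in the adult control and 323, 12318 and 2315 with stabilized beta-catenin. Its stabilized libraries spread widely and limma with trend did not call it (log2FC 1.11, SE 0.96, adjusted p = 0.318). edgeR called it higher (2.35, adjusted p = 0.0378). Without stabilized library 1 it was called higher (2.46, adjusted p = 0.00106), and without library 2 it was not (-0.17, adjusted p = 0.814).

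Genes of antigen presentation, complement and macrophages were mostly higher than in the neonate. Of 18 genes of MHC class II and antigen presentation tested, 15 were higher and none lower (median log2FC 1.67), beside 36.5% and 35.8% of all genes, and of 14 complement genes 12 were higher and none lower (1.91), with 1 lower without stabilized library 2. Of 25 interferon response genes 13 were higher and 3 lower (median 0.51), which became 7 and 5 with a median of 0.11 under total-count scaling. The class II gene H2-Aa had 23.3, 14.5 and 13.4 at P6, 1365, 499 and 587 in the adult control and 705, 1272 and 679.7 with stabilized beta-catenin (log2FC 5.60, SE 0.27, adjusted p = 1.47e-07). Cd74, the invariant chain, was 46.8 ± 17.6 at P6, 1143 ± 573 in the adult control and 1190.2 ± 421 with stabilized beta-catenin (log2FC 4.64, SE 0.27, adjusted p = 3.85e-07). Adult groups overlapped in both genes. Of 15 macrophage markers 14 were higher and none lower (median 1.85), among them Cd163 (4.28), Lyz2 (3.04) and F13a1 (2.88), with a summed level of 1349 to 1629 at P6, 5357 to 6694 with stabilized beta-catenin and 5655 to 8113 in the adult control and no marker at 0 in a whole group. The part of these markers in the antigen presentation result was not tested. In the other direction, 4 of 4 erythroid markers tested were lower. Their summed level was 766 to 980.2 at P6, 79.6 to 353 with stabilized beta-catenin and 465 to 778 in the adult control. The count of lower markers was 2 with any 1 P6 library left out. There the filter was applied anew, which can take markers out of the test. Of the 9 erythroid markers in the table, 5 were at 0 in all P6 libraries and 4 in all stabilized libraries.

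A few genes of the stabilized ventricle lay within 2-fold of the neonatal level and away from adult control. By the rule that both groups were called at least 2-fold above adult control with an interval of their difference within 2-fold, 7 symbols were found, where at least 2-fold rises over control were called for 1.3% of all genes with stabilized beta-catenin and for 17.7% at P6. They include Adamts19, Cacna1g, Mybl1, Mcm2, Ccne2 and Mcm4, and 1 was stored as a date and carries no gene name. Adamts19, a secreted metalloprotease gene, had 433, 334 and 304 at P6, 11.7, 12.1 and 18 in the adult control and 254, 204 and 558 with stabilized beta-catenin (log2FC -0.20 against P6), and it was called higher than control by 4.39. Mybl1, a MYB factor, was 157 ± 43.2 at P6, 23.8 ± 5.94 in the adult control and 133 ± 37.3 with stabilized beta-catenin. Mcm2 and Mcm4, subunits of the replicative helicase, had log2FC of -0.46 (adjusted p = 0.0542) and -0.52 (adjusted p = 0.02) against P6, so Mcm4 was still called lower. The symbol stored as a date was also called lower than P6 (log2FC -0.47, adjusted p = 0.00155), a call that held in all 20 alternatives run. An interval within 2-fold does not show that levels were equal. Calls against P6 appeared for Adamts19 without stabilized library 3, for Mybl1 and Ccne2 under total-count scaling and for Mcm2 in 6 alternatives.

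In the mirror case, 6 genes were at least 2-fold below adult control both at P6 and with stabilized beta-catenin, where such falls were called for 15.4% and 0.208% of all genes. Corin, the protease that activates natriuretic peptides in cardiomyocytes, had 1469, 1382 and 1484 at P6, 3785, 5848 and 6657 in the adult control and 1707, 1105 and 1798 with stabilized beta-catenin (log2FC 0.06, SE 0.16, adjusted p = 0.761 against P6). P6 and stabilized libraries overlapped and all lay below the control. Without stabilized library 2 Corin was called against P6. Tbc1d10c, Tmem100, Ttc38, Pim3 and 8430408G22Rik were the other 5. Ttc38 was not called against P6 (log2FC 0.44, SE 0.20, adjusted p = 0.0708) but was called higher with the replicate block (0.44, adjusted p = 0.0126), under quantile normalization (0.49, adjusted p = 0.0429), with the Y-linked covariate (0.65, adjusted p = 0.0054) and without stabilized library 3 (0.63, adjusted p = 0.0113). The kinase gene Pim3 was still called higher than at P6 (0.49), which was lost under total-count scaling.

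A last group of 5 genes was below P6, with every stabilized library at or under the lowest adult control library divided by 2. They were Dlk1, Plekhh1, Adamts14, Cacna1h and Sema6c. Dlk1 had no read in the stabilized libraries and so met the condition on the control at any control level. The other genes lay farther from the neonate than the control did. Plekhh1 had 879, 872 and 851 at P6, 126, 68.7 and 112 in the adult control and 7.02, 21.4 and 6.52 with stabilized beta-catenin (log2FC -6.30, SE 0.35, adjusted p = 2.92e-07). Sema6c, a semaphorin gene, was 141 ± 7.90, 92.9 ± 12 and 33 ± 5.70 in the same order (log2FC -2.08, SE 0.18, adjusted p = 4.39e-06).

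The genes with the largest differences of all mostly separated both adult groups from P6. The 10 largest rises among called genes with a mean of at least 100 were Esr1, Bdh1, Inmt, Edn3, Cxcl14, Plet1os, Scn4b, Ifi205, Hrasls and Gbp10. Inmt, a methyltransferase gene, had no read at P6, 52.5, 116 and 102 normalized counts in the adult control and 293, 80.4 and 437 with stabilized beta-catenin, and was at least 204-fold higher against a floor of 3 reads over the P6 libraries. The chemokine gene Cxcl14 had no read at P6 and 244, 104 and 207 with stabilized beta-catenin, at least 129-fold higher on the same floor. Plet1os, Ifi205 and Gbp10 had 1 read each at P6. Hrasls was 6.77 ± 3.50 at P6, 540.1 ± 78.4 in the adult control and 647 ± 10.7 with stabilized beta-catenin (log2FC 6.51).

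The 10 largest falls were Tnni1, Scd4, Igf2bp3, Dlk1, Sox11, Acan, Vash2, Plekhh1, Nrk and Col24a1. Scd4, a stearoyl-CoA desaturase gene of the mouse heart, had 1665, 1742 and 1825 at P6, 72.5, 32.4 and 30.2 in the adult control and 18, 5.99 and 2.96 with stabilized beta-catenin (log2FC -7.75, SE 0.44, adjusted p = 3.22e-07, and -8.37 without stabilized library 1). Each stabilized library was below each control library. Vash2, a vasohibin gene, was 341 ± 21.6 at P6 and 2.78 ± 1.13 with stabilized beta-catenin (log2FC -6.54), and the kinase gene Nrk 1030.0 ± 39.7 and 14.5 ± 4.36 (log2FC -6.09, SE 0.19, adjusted p = 2.27e-08). Over all 13367 genes, 8 had no read in the stabilized libraries and 12 had none at P6, and 23 and 29 had 1 to 3.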

How the data were processed

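Bulk RNA sequencing of cardiac ventricles was used as deposited, with 3 libraries per group. Per the submitters' processing notes, Bowtie2 2.0, DESeq2 and the mm9 build were used. The strand setting of the counting is not given in the sources used here, so antisense genes cannot be told apart. The deposited values are a signal per gene, read counts that the authors divided by a size factor per library, and all values gave whole reads within 0.001. The P6 reads so recovered equalled the deposited counts. The size factors of stabilized library 1 and control library 2 (0.998 and 0.989) lie so near 1 that their steps are less sure. Genes reaching a minimum of 10 in 3 or more of the 6 libraries were kept and fitted with limma 3.58.1 in R 4.3.3 on log2(normalized count + 1) with trend, two-sided, 2 groups only, with Benjamini-Hochberg adjustment over all genes. Fold changes on this scale understate those of low genes. Stabilized against control and P6 against control were separate fits that share libraries. edgeR 4.0.16 and DESeq2 1.42.0 on the recovered counts, other scalings, filters and pseudocounts, thinning and leaving out each library were alternatives. Intervals and floors of 3 reads cover counting error only. On simulated data for 13171 genes, 67, 67 and 66 genes were changed 1.5, 2 and 4-fold, and genes with low means were left out of those changed. Of these genes 44.8%, 88.1% and 100% were recovered, and 10.9% of calls were false. In the comparison 72.3% of all genes were called, far more than were changed in the simulation, so these shares do not carry over to it.

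Members and gene lists were chosen with earlier results of these data known. Genes were named by rule: reference genes and isoform pairs, the 10 largest rises and falls, up to 4 called members per list and direction, all members of lists of at most 12, and the genes placed above, below or level with both other groups. Not every gene that met the rule is described. Ccnb1, Ccnd1, Ccnd2, Cd44, Gpc3, Kremen1, Lgr6, Nkd2, Plod2, Tcf7, Tcf7l2, Tnfrsf19, Usp29, Wif1 and Znrf3 were chosen after their values were seen. Of the symbols, 25 were stored as dates and are not named.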

Additional observations from a re-analysis of the deposited data

How the results depend on the processing

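Counts of called genes stayed within 1.5 times of 4882 higher and 4784 lower under every alternative run except total-count scaling (2946 higher) and a bound of at least 2-fold (2063 higher and 2505 lower). Leaving out 1 library gave 4484 to 4608 higher and 4051 to 4704 lower, with the filter applied anew to the remaining libraries. Library numbers did not pair the samples, since same-numbered libraries had correlations of deviations of -0.11, 0.13 and 0.04, and a fit with the replicate block gave 4738 higher and 4672 lower. Of 6936 values for 358 named genes, 6754 kept the side of the threshold, 110 lost a call and 56 gained one. Among the 6754 are changes of direction with no call in either fit, such as those of Ccne2 and Adamts19. The 16 reversals are changes of direction with a call in at least 1 of both fits. Their cause was not tested. Under total-count scaling the log2 fold change became -0.36 for 8430408G22Rik, -0.34 for Cdkn1b, -0.40 for Cox8a, -0.082 for Csnk1a1, -0.083 for Dvl1, -0.14 for Gsk3a, -0.051 for Insr, -0.14 for Kcnj8, -0.0042 for Slc25a5 and -0.094 for Tbx20. Under quantile normalization it became -0.15 for Actc1, -0.31 for Actn2, -0.054 for Csnk1a1, -0.25 for Insr, -0.019 for Rgs5 and -0.40 for Tbx20. Of 2098 counts of list members, 145 moved by over 1.5 times. P6 libraries held fewer reads than adult libraries, which limits genes with few reads most, and thinning the stabilized libraries to the mean P6 total gave 4562 higher and 4539 lower.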
